A study of Microtus ochrogaster and Microtus pennsylvanicus and Peromyscus californicus with 10 samples.

Results

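In the fore- and midbrain of the prairie vole (Microtus ochrogaster), 378 of 9375 rodent protein IDs stood apart from 3 other rodent species that resembled one another. These IDs were selected by their levels. Their RPM (read counts scaled to a common library size) in Microtus pennsylvanicus (meadow vole), Peromyscus californicus (California mouse) and Peromyscus maniculatus (North American deer mouse) lay within 4-fold of each other. The RPM in M. ochrogaster was at least 8 times the highest, or at most 1/8 of the lowest, of these 3 values. Of the 378 IDs, 77 were raised in M. ochrogaster (0.821% of the 9375 IDs listed in all 4 rodent tables) and 301 were lowered (3.21%). All levels and ratios in this contrast entered the selection, so they are given as a description and without a test.

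Each of the 4 groups was a species, with 1 library made from the pooled fore- and midbrains of 3 reproductive males, and all groups were untreated as far as the labels say. The remaining 6 of the 10 libraries in the series are from birds, frogs and fish, carry IDs of other prefixes, and were not used here. With 1 library per species, a difference between species and a difference between pools, dissections or libraries cannot be told apart. The labels give either flash freezing or RNAlater as the preservation for all samples together, and do not say which was used for which species.

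The prairie vole is the rodent in which social monogamy, a lasting bond between mates with shared care of young, has been studied most in the laboratory. Oxytocin, vasopressin and dopamine signalling in the forebrain are known to take part in that bond. The meadow vole is a close relative that mates promiscuously, the California mouse is a monogamous species of another genus, and the deer mouse is its promiscuous counterpart. The rule places M. ochrogaster against a set that holds its own congener as well as another monogamous rodent. A member is therefore by selection an ID that follows neither the genus nor the mating system.

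Members are called by the ID that the tables give. IDs with the prefix ENSRNOP are Ensembl's names for proteins of the rat, so counts of all 4 species are given under names of rat proteins. Which reference the reads of each species were mapped to is not given. A difference in level between species and a difference in the reference, or in how well reads match it, therefore cannot be told apart. The tables pair no ID with a gene symbol, and 0 of the 19750 IDs listed in any rodent table were matched to one here. What each protein does is therefore not stated, no sequence is shown, and the tissue label was not checked against cell type markers. How reads that match several similar proteins were counted is not given, so a difference in a member's level and a different assignment of reads between similar IDs cannot be told apart. RPM is not divided by length, so an order of IDs by RPM is an order of reads and not of molecules. In brain tissue, fewer cells of a type and less RNA per cell cannot be told apart in such values.

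The RPM scale of M. ochrogaster rests on 274693175 reads, against 75649532 in M. pennsylvanicus, 84958567 in P. californicus and 101971826 in P. maniculatus. Its table lists 18547 IDs, and the others list 13167 to 14200. The lowest listed count was 36 in M. ochrogaster (0.131 RPM), 7 in M. pennsylvanicus, 1 in P. californicus and 6 in P. maniculatus. No table lists a count of 0. Over the 5687 IDs that were within 4-fold in the 3 comparison libraries, the median log2 ratio of M. ochrogaster to their median was -0.06. The scales were thus nearly centred over all these IDs, but not in each class of abundance. The median log2 ratio was 3.07 where the comparison median was under 1 RPM, 1.77 at 1 to 3 RPM and 0.593 at 3 to 10 RPM. In the classes from 10 RPM it lay between -0.253 and -0.0655. M. ochrogaster lay inside the range of the other 3 for 1775 of the 5687 IDs (31.2%), above it for 1783 and below it for 2129. The 378 members are the outer part of this distribution.

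**Figure D1:**
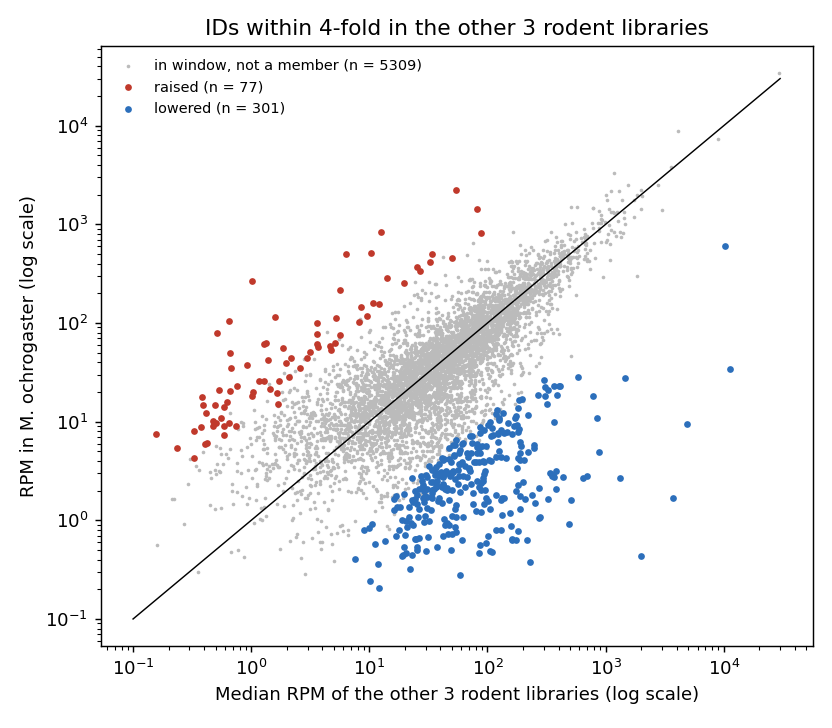
RPM in M. ochrogaster (vertical, log scale) against the median RPM of M. pennsylvanicus, P. californicus and P. maniculatus (horizontal, log scale). Each point is 1 of the 5687 IDs within 4-fold in those 3 libraries, and the line marks equal values. The 77 raised IDs lie over low values of the other libraries, and the 301 lowered IDs over middle and high ones, which is in part built in by the rule.

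The raised IDs were mostly scarce in the other rodents. Their RPM in M. ochrogaster ran from 4.24 to 2216, with a median of 44.1. In the comparison libraries the medians were 1.60 RPM in M. pennsylvanicus, 1.49 in P. californicus and 1.66 in P. maniculatus. No raised ID exceeded 94.2 RPM in any of those 3 libraries. In M. ochrogaster 64 of the 77 had at least 10 RPM, 23 at least 100 and 2 at least 1000.

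The most abundant raised ID was ENSRNOP00000009564. It had 2216 RPM in M. ochrogaster, 45.6 in M. pennsylvanicus, 78.1 in P. californicus and 54.4 in P. maniculatus. It ranked 18 of the 18547 IDs in the prairie vole table, and 2730 to 3502 in the other tables. The level in M. ochrogaster was 28.4 times that of the nearest library, P. californicus, with a counting interval of 27.7 to 29.1. This interval, like those below, is the exact binomial 95% interval of the ratio of 2 counts. It covers counting error only, and not the spread between animals or libraries.

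ENSRNOP00000063719 had 1423 RPM in M. ochrogaster, 31.6 in M. pennsylvanicus, 94.2 in P. californicus and 81.6 in P. maniculatus. Here the meadow vole was the lowest of the 4, and the ratio to the nearest library, P. californicus, was 15.1 (14.8 to 15.5). ENSRNOP00000018808 had 826 RPM in M. ochrogaster against 8.46, 12.4 and 13.6 in M. pennsylvanicus, P. californicus and P. maniculatus. It ranked 83 in the prairie vole and 7166 to 8112 elsewhere, a ratio of 60.7 (57.6 to 64.03) to P. maniculatus. ENSRNOP00000029617 reached nearly the same level in the prairie vole, 817 RPM, but stood higher in the others, at 89.7, 88.2 and 53.6 RPM in the same order. Its ratio of 9.10 (8.89 to 9.33) to M. pennsylvanicus was close to the limit of the rule. These 4 were the raised IDs among the 100 highest of the prairie vole table, and no raised ID was among the 1000 highest of any other rodent table. Raised IDs were 0.821% of the 9375 shared IDs and were chosen as high in the prairie vole.

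ENSRNOP00000038869 and ENSRNOP00000008813 had similar levels in the prairie vole, with 508 and 505 RPM. The first had 9.53 RPM in M. pennsylvanicus, 10.4 in P. californicus and 15.5 in P. maniculatus, a ratio of 32.7 (31.1 to 34.4) to the last. For ENSRNOP00000008813 the values were 5.12, 6.33 and 7.40 RPM in the same order, and the ratio to P. maniculatus was 68.1 (63.4 to 73.3). In both IDs the deer mouse, not the congener, came nearest to the prairie vole.

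The other 4 of the 10 most abundant raised IDs lay closer to the limit. ENSRNOP00000057932 had 496 RPM in M. ochrogaster and 30.4, 54.1 and 34.0 RPM in M. pennsylvanicus, P. californicus and P. maniculatus, a ratio of 9.18. ENSRNOP00000065391 had 453 RPM against 52.5, 49.9 and 15.9, with a ratio of 8.63 and the deer mouse well below the other comparison species. In the remaining pair a vole and a Peromyscus mouse, respectively, came nearest to M. ochrogaster. ENSRNOP00000028324 had 415 RPM against 38.8, 32.5 and 28.3 (ratio 10.7). ENSRNOP00000064776 had 371 RPM against 25.2, 35.2 and 15.7 (ratio 10.5).

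The largest ratios among raised IDs belonged to IDs close to the lower end of the other tables. ENSRNOP00000005654 had 78.5 RPM in M. ochrogaster (21566 counts), and 0.516 RPM in M. pennsylvanicus (39 counts), 0.412 in P. californicus (35 counts) and 0.539 in P. maniculatus (55 counts). The ratio to P. maniculatus was 146, with a counting interval of 112 to 193. With 0.5 RPM added to every value it was 76.0, below that of the next ID, which was then 112. ENSRNOP00000014202 had 268 RPM in M. ochrogaster against 0.978, 1.01 and 1.89 RPM in the same order. Its ratio was 142 (123 to 164), and it ranked 545 in the prairie vole and 11234 to 11954 in the others. ENSRNOP00000028218 had 104 RPM against 0.463, 0.647 and 1.15 RPM, a ratio of 91.0 (75.9 to 110.04) that rests on 117 counts in P. maniculatus. These 3 IDs and ENSRNOP00000008813 are the 4 raised members beyond 64-fold.

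Ratios of raised IDs were otherwise moderate. Their median was 13.2, with 51 IDs between 8- and 16-fold, 16 between 16- and 32-fold and 6 between 32- and 64-fold. The counting interval lay wholly above 8 for 73 of the 77. Abundance and ratio did not rise together, as the median ratio was 13.2 in the 33 IDs under 30 RPM in M. ochrogaster, 14.4 in the 21 IDs from 30 to 100 RPM and 12.3 in the 23 IDs from 100 RPM. In 40 of the 77 IDs the lowest of the 4 counts was under 100, and in none was it under 10.

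**Figure D2:**
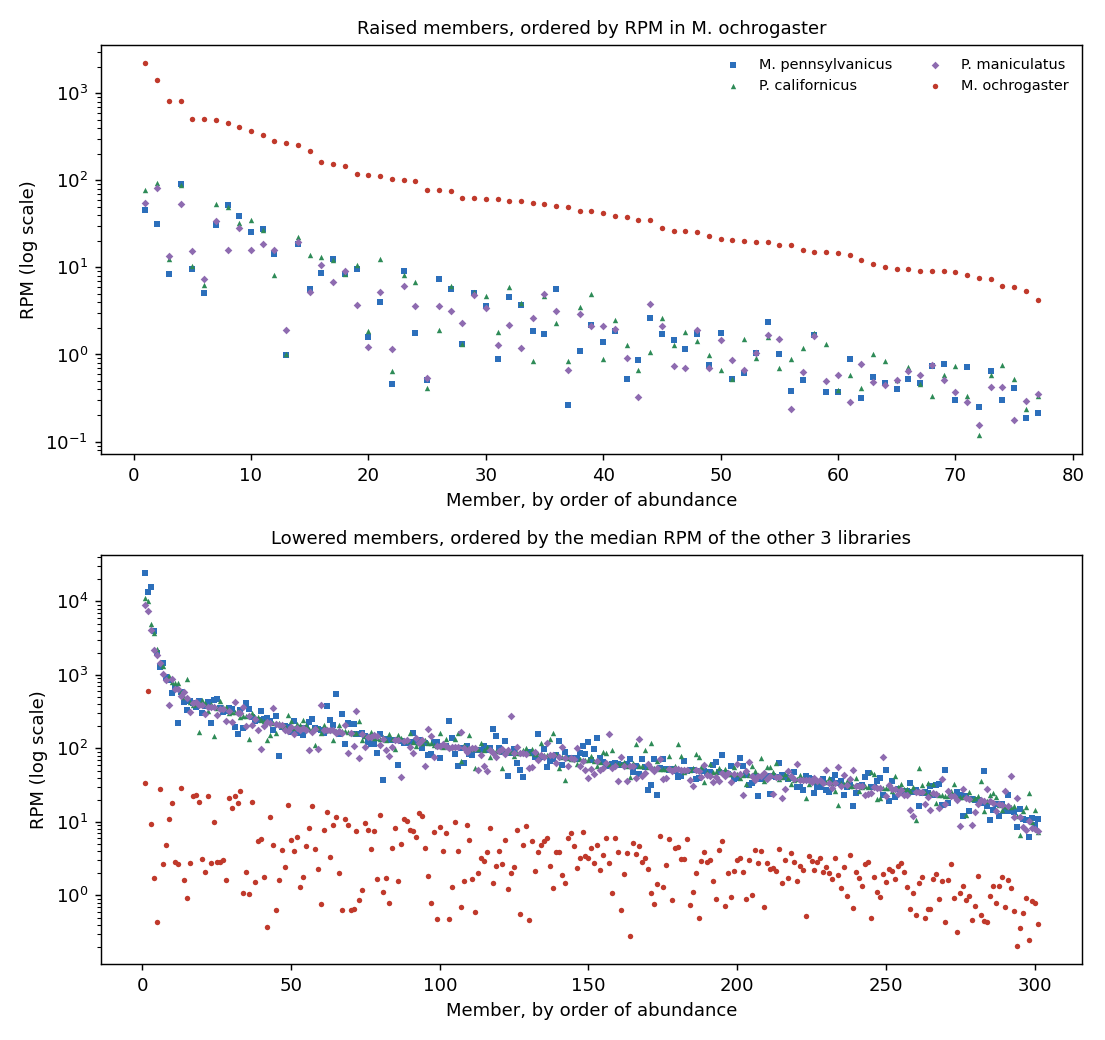
RPM (vertical, log scale) of all 77 raised members (upper panel) and all 301 lowered members (lower panel) in each of the 4 rodent libraries. Members are ordered along the horizontal axis by RPM in M. ochrogaster (raised) or by the median RPM of the other 3 (lowered), and the M. ochrogaster points stand clear of the rest as the rule requires.

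The lowered IDs included some of the most abundant IDs of the other rodents. Their median over the 3 comparison libraries ran from 7.63 to 11201 RPM, with a midpoint of 68.9 RPM. Of the 301, 299 had at least 10 RPM, 109 at least 100 RPM and 7 at least 1000 RPM by this median. In M. ochrogaster they had 0.208 to 607 RPM, with a median of 2.46. Among the 100 highest IDs there were 9 lowered members in M. pennsylvanicus, 10 in P. californicus and 9 in P. maniculatus, and none in M. ochrogaster. Lowered IDs were 3.21% of the 9375 shared IDs, and 11.1% of those in the 4-fold window from a comparison median of 300 RPM. They were chosen as low in M. ochrogaster, so these counts are a description only.

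The first of them was ENSRNOP00000046414, with 34.0 RPM in M. ochrogaster, 23965 in M. pennsylvanicus, 11201 in P. californicus and 8841 in P. maniculatus. It ranked 4, 2 and 9 in those 3 tables and 4512 in the prairie vole table. The level in P. maniculatus, the nearest library, was 260 times that in M. ochrogaster (counting interval 255 to 265).

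ENSRNOP00000039438 was the only lowered member that remained among the 1000 highest IDs of the prairie vole. It had 607 RPM there (rank 135), 13495 in M. pennsylvanicus, 10275 in P. californicus and 7363 in P. maniculatus. P. maniculatus came nearest, at 12.1 times the level in M. ochrogaster (12.1 to 12.2). ENSRNOP00000051326 lay further from the other libraries, with 9.41 RPM in M. ochrogaster, 15900.3 in M. pennsylvanicus, 4920 in P. californicus and 4089 in P. maniculatus. Here the meadow vole was 3.89 times the deer mouse, close to the 4-fold window, and the ratio to the nearest library was 434 (418 to 452).

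The most extreme member was ENSRNOP00000014312. It had 0.433 RPM in M. ochrogaster, from 119 counts, and 2002 RPM in M. pennsylvanicus, 2218 in P. californicus and 1868 in P. maniculatus. Comparison libraries differed from each other by 1.19-fold, and each placed the ID among its 28 highest. In the prairie vole it ranked 18199 of 18547. The ratio of P. maniculatus to M. ochrogaster was 4312 (3603 to 5205), and 2002 with 0.5 RPM added to every value. ENSRNOP00000003283 showed the next largest ratio, 1274 (1164 to 1399), with 1.70 RPM in M. ochrogaster against 3913, 3708 and 2167 RPM in M. pennsylvanicus, P. californicus and P. maniculatus.

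The other 5 of the 10 most abundant lowered IDs had 387 to 1463 RPM in the comparison libraries. ENSRNOP00000008210 had 27.8 RPM in M. ochrogaster and 1275, 1455 and 1463 RPM in M. pennsylvanicus, P. californicus and P. maniculatus, a ratio of 45.9. ENSRNOP00000000696 had 2.70 RPM against 1437, 1313 and 1042 (ratio 386, interval 359 to 416). The comparison libraries were almost level for ENSRNOP00000062967, at 933, 873 and 857 RPM, where M. ochrogaster had 4.93 RPM (ratio 174). ENSRNOP00000022144 had 10.8 RPM against 843, 963 and 387 (ratio 35.7), with the deer mouse the lowest of the comparison species. ENSRNOP00000010630 had 18.2 RPM against 570.1, 789 and 870.2 (ratio 31.3), and here the meadow vole was nearest to the prairie vole.

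**Figure D3:**
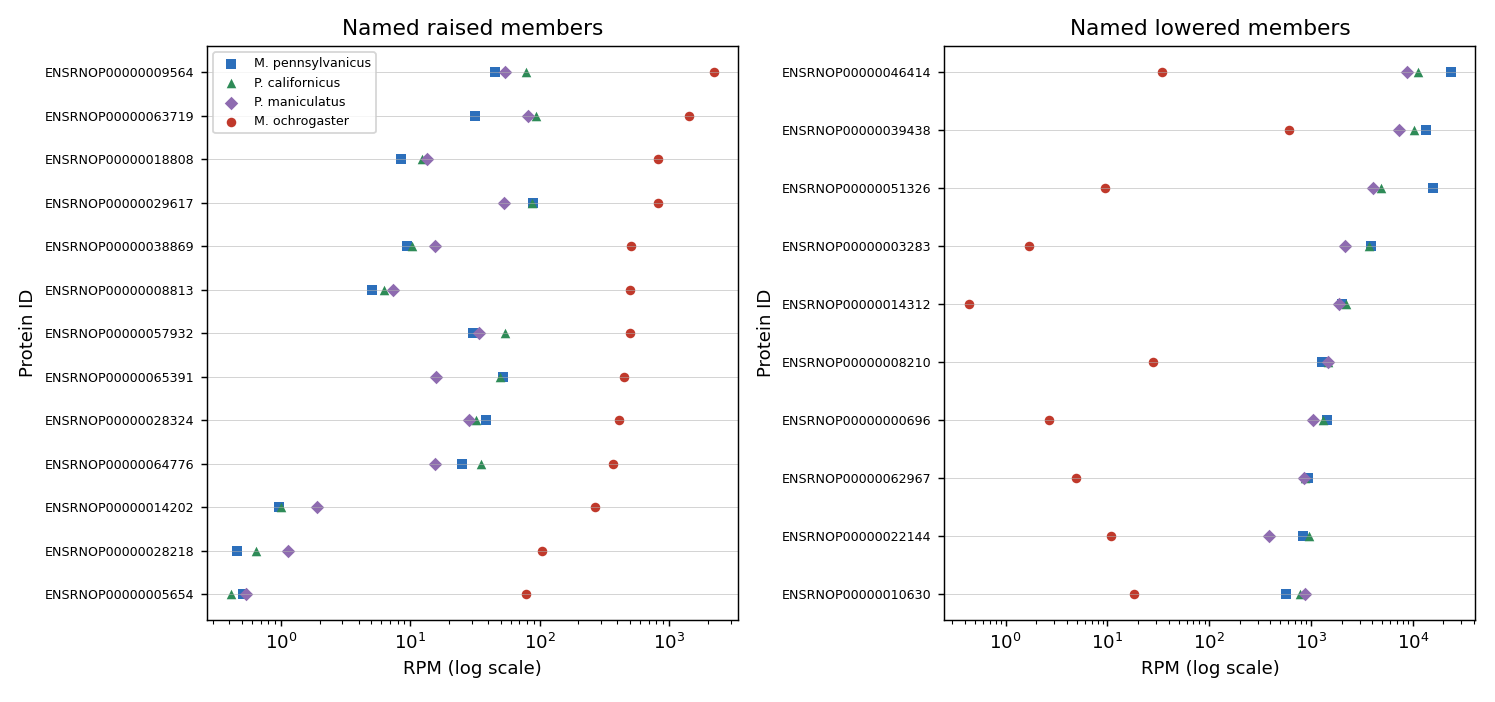
RPM (horizontal, log scale) in the 4 rodent libraries for the 13 named raised and 10 named lowered protein IDs (vertical). Each marker is 1 library. ENSRNOP00000005654, ENSRNOP00000028218 and ENSRNOP00000014202 lie farthest from the other libraries among raised IDs, and ENSRNOP00000014312 among lowered IDs.

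Among lowered IDs the ratio was larger where the ID was more abundant in the other rodents. Part of this rise is built in, since the ratio and the abundance class are both taken from the comparison values. The rule also used these values and cut the ratio at 8. The median ratio of the lowest comparison library to M. ochrogaster was 14.4 in the 57 IDs with a comparison median under 30 RPM and 14.9 in the 135 IDs from 30 to 100 RPM. It was 28.3 in the 76 IDs from 100 to 300 RPM and 81.7 in the 33 IDs from 300 RPM. Ratios of 64-fold or more occurred in 0 of 57, 7 of 135, 23 of 76 and 18 of 33 IDs in these classes. The lowest listed value of the prairie vole table, 0.131 RPM, limits the ratio an ID can reach, and the lowest value among lowered IDs was 0.208 RPM. The part of this limit in the order was not tested. Over all lowered IDs the median ratio was 16.4, with 147 IDs between 8- and 16-fold, 65 between 16- and 32-fold, 41 between 32- and 64-fold and 48 beyond. The counting interval lay wholly above 8 for 283 of the 301 IDs.

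By selection, the members held a larger part of the reads in the species where they were high, and the shares give its size only. The 301 lowered IDs made up 0.197% of the listed counts in M. ochrogaster, 10.02% in M. pennsylvanicus, 7.45% in P. californicus and 6.16% in P. maniculatus. Without the 3 highest lowered IDs of each library the shares were 0.126%, 4.42%, 4.64% and 4.03% in the same order. The 77 raised IDs made up 1.28% in M. ochrogaster, and 0.0565%, 0.0737% and 0.0524% in the others. In M. ochrogaster 0.806% remained without its 3 highest raised IDs. Lowered IDs thus held more of the counts in each comparison library than raised IDs did in M. ochrogaster. The lowered set was also the larger, with 301 IDs against 77, and both sets were chosen by these values, so nothing is concluded from this difference.

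The limits of the rule cut through a continuous distribution. Just inside it, ENSRNOP00000021164 was raised by a ratio of 8.03 and ENSRNOP00000055478 by 8.28, and just outside it ENSRNOP00000016722 had 7.99 and ENSRNOP00000003980 had 7.97. On the lowered side, ENSRNOP00000025716 (8.04) and ENSRNOP00000015605 (8.07) were inside, and ENSRNOP00000061233 (7.98) and ENSRNOP00000016227 (7.96) outside. A further 113 IDs in the 4-fold window were raised and 205 lowered by 4- to 8-fold. The window itself left out 67 of the 144 IDs raised by 8-fold over every other library and 22 of the 323 lowered by 8-fold. The raised count also depended on having 3 comparison libraries. With M. pennsylvanicus left out, 225 IDs were raised, with P. californicus left out 222 and with P. maniculatus left out 211. The lowered counts were then 447, 340 and 385. Each set holds all 77 or all 301 members by construction, since leaving a library out can only ease the rule.

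The rule treats the 3 comparison species alike and does not fix their order within the 4-fold window. An ID where any of them comes near M. ochrogaster fails the rule, however, so the selection can bear on which is nearest. In the raised IDs the congener M. pennsylvanicus was the highest of the 3, and so nearest to M. ochrogaster, in 17 of 77 (22.1%). P. californicus was highest in 36 (46.8%) and P. maniculatus in 24 (31.2%). Among the 5309 IDs in the window that were not members, the corresponding shares were 39.0%, 37.4% and 23.6%. In the lowered IDs M. pennsylvanicus was the lowest of the 3, again the side nearest to M. ochrogaster, in 109 of 301 (36.2%), P. californicus in 60 (19.9%) and P. maniculatus in 132 (43.9%). The non-members had 30.8%, 25.7% and 43.4%. The order of the 3 libraries in lowered IDs depended on the scale. With TMM scaling (trimmed mean of M values, a scaling by the bulk of the IDs) P. californicus was lowest in 31.0%, P. maniculatus in 33.1% and M. pennsylvanicus in 35.9%, so that the congener was then the library most often nearest to M. ochrogaster among lowered IDs. IDs are not independent of each other, and these shares have no test. Members and non-members were not matched for abundance.

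The comparison libraries agreed more closely over the lowered than over the raised IDs. The ratio of the highest to the lowest of the 3 had a median of 1.62 in lowered and 2.01 in raised IDs. It was below 2 in 221 of 301 lowered IDs (73.4%), 38 of 77 raised IDs (49.4%) and 3363 of 5309 non-members (63.3%). The counts behind the raised IDs were smaller in these libraries, with medians of 121, 127 and 169 counts in M. pennsylvanicus, P. californicus and P. maniculatus, against 5068, 6233 and 6090 in lowered IDs. The part of these counts in the wider spread was not tested.

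The same rule was then applied with each other rodent library in the place of M. ochrogaster. It found 18 raised and 235 lowered IDs in M. pennsylvanicus alone (0.192% and 2.51% of 9375), and 37 and 140 in P. californicus alone (0.395% and 1.49%). For P. maniculatus the counts were 29 and 208 (0.309% and 2.22%). IDs where 1 library alone was low thus outnumbered those where it alone was high in all 4 species, and M. ochrogaster had the most of both kinds. Its share of raised among all members was 20.4%, against 7.11% in M. pennsylvanicus, 20.9% in P. californicus and 12.2% in P. maniculatus. No test of these differences was possible with 1 library per species.

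Very large differences were about as frequent in M. pennsylvanicus and P. maniculatus as in M. ochrogaster. Lowered ratios of 64-fold or more were found for 48 IDs in M. ochrogaster, 49 in M. pennsylvanicus, 23 in P. californicus and 42 in P. maniculatus, and raised ones for 4, 1, 2 and 4 IDs. Lowered IDs that were abundant elsewhere were more numerous. With a median of at least 100 RPM in the other 3 libraries, M. ochrogaster had 109, M. pennsylvanicus 53, P. californicus 20 and P. maniculatus 42.

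The listing of IDs differed between the tables and bears on these counts, since an ID must be listed to be a member. Of the IDs within 4-fold and at a median of at least 100 RPM in the other 3 tables, 22 were not listed in M. ochrogaster, 65 in M. pennsylvanicus, 39 in P. californicus and 39 in P. maniculatus. Lowered and unlisted IDs together came to 131, 118, 59 and 81 in the same order, so the gap between the voles was much smaller in the sum than in lowered IDs alone. At a median of at least 10 RPM the sums were 377, 548, 301 and 376, and there M. pennsylvanicus had more than M. ochrogaster. An unlisted ID was not shown to be low. Depth of sequencing moved with this listing only in part. M. ochrogaster had the most reads and the fewest unlisted IDs from 100 RPM, and M. pennsylvanicus the fewest reads and the most unlisted IDs. P. californicus had more reads than M. pennsylvanicus, however, but listed fewer IDs in all (13167 against 13841). The part of depth in the listing was not tested.

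**Figure D4:**
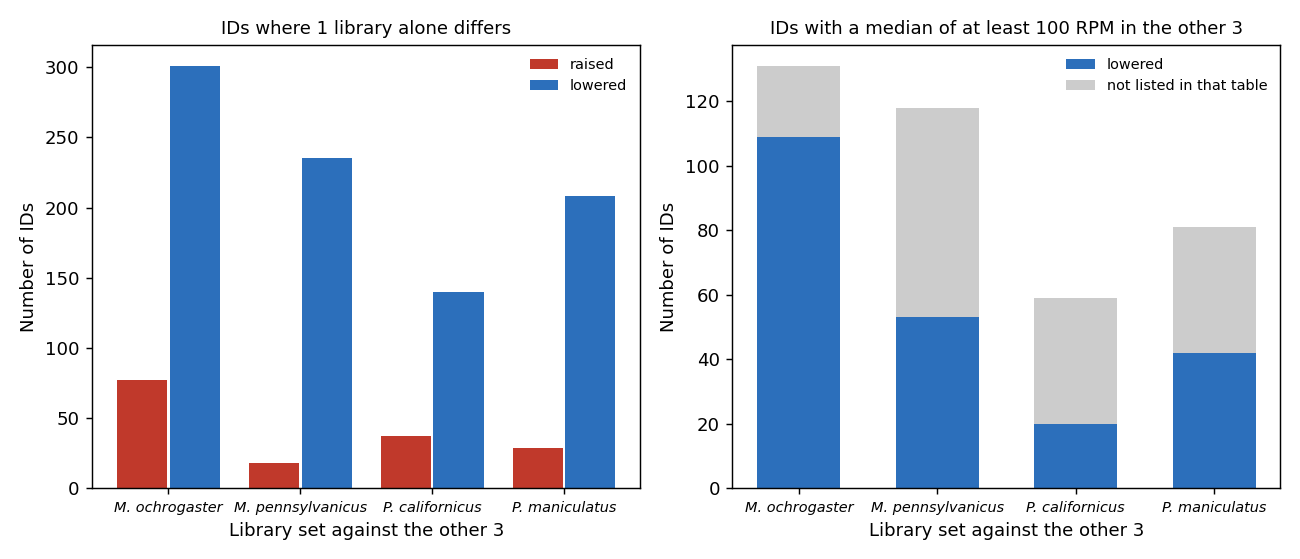
Number of IDs (vertical) for each rodent library set against the other 3 (horizontal). Left, IDs raised or lowered by the 8-fold rule, with 77 and 301 in M. ochrogaster. Right, IDs with a median of at least 100 RPM in the other 3 libraries that were lowered (blue) or not listed (grey), which sum to 131 in M. ochrogaster and 118 in M. pennsylvanicus.

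Some IDs were missing from the prairie vole table alone, and were given no value there. Of 215 IDs listed in the other 3 tables but not in that of M. ochrogaster, 125 were within 4-fold, and 78 of these had a median of at least 10 RPM. The highest, named after its values were seen, was ENSRNOP00000015331, with 1195 RPM in M. pennsylvanicus, 1151 in P. californicus and 967 in P. maniculatus. In the other direction, 2164 IDs were listed in M. ochrogaster only. Most had low levels, with a median of 1.92 RPM, while 212 had at least 10 RPM and 13 at least 100 RPM.

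The 2 directions were found at different abundances, and part of this split is built in. The lowest listed M. ochrogaster value was 0.131 RPM, so a lowered ID needed at least 8 times that in every comparison library. In the 4-fold window 5536 of 5687 IDs met this limit, and 5.44% of them were lowered. An ID high in the comparison libraries needed at least 8 times as much in M. ochrogaster to be raised. The highest raised member had 2216 RPM. The part of these limits in the split was not tested. Among listed IDs from 10 RPM, the lowered share rose from class to class up to the highest in M. ochrogaster and not in the other 3 libraries. This difference could not be tested with 1 library each. Among IDs in the 4-fold window, 3.84% were lowered in M. ochrogaster where the other 3 had a median of 10 to 30 RPM, 6.63% at 30 to 100 RPM, 8.03% at 100 to 300 RPM and 11.1% from 300 RPM. In M. pennsylvanicus the share was 4.12%, 5.28%, 5.52% and 1.89% in these classes. It was 3.40%, 1.97%, 2.31% and 0.375% in P. californicus, and 4.91%, 3.63%, 3.53% and 4.14% in P. maniculatus. The highest class held 264 to 297 IDs per species, of which 33 were lowered in M. ochrogaster, 5 in M. pennsylvanicus, 1 in P. californicus and 12 in P. maniculatus. All these shares leave out unlisted IDs, which were fewest in M. ochrogaster. From a median of 100 RPM, 22 IDs within 4-fold were unlisted in M. ochrogaster and 65 in M. pennsylvanicus. In P. californicus and P. maniculatus 39 each were unlisted. The part of the listing in the rise was not tested.

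In every species the raised share was highest where the other libraries were lowest. In M. ochrogaster 35.8% of the 81 IDs with a comparison median under 1 RPM were raised, 8.23% at 1 to 3 RPM and 2.27% at 3 to 10 RPM. Further up it was 0.558% of 1433 IDs at 10 to 30 RPM and 0.295% of 2037 at 30 to 100 RPM. None were raised among the 946 IDs at 100 to 300 RPM or the 297 from 300 RPM. The share under 1 RPM was 28.6% of 28 IDs in P. californicus, 21.7% of 23 in P. maniculatus and 12.5% of 16 in M. pennsylvanicus. In that class the median log2 ratio of M. ochrogaster to the middle comparison library was 3.07, so most of its IDs, members or not, were higher in the prairie vole. Being listed at such low values in 3 tables and in that of M. ochrogaster, whose lowest listed value was 0.131 RPM, is itself a selection. Its part in the raised share was not tested.

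**Figure D5:**
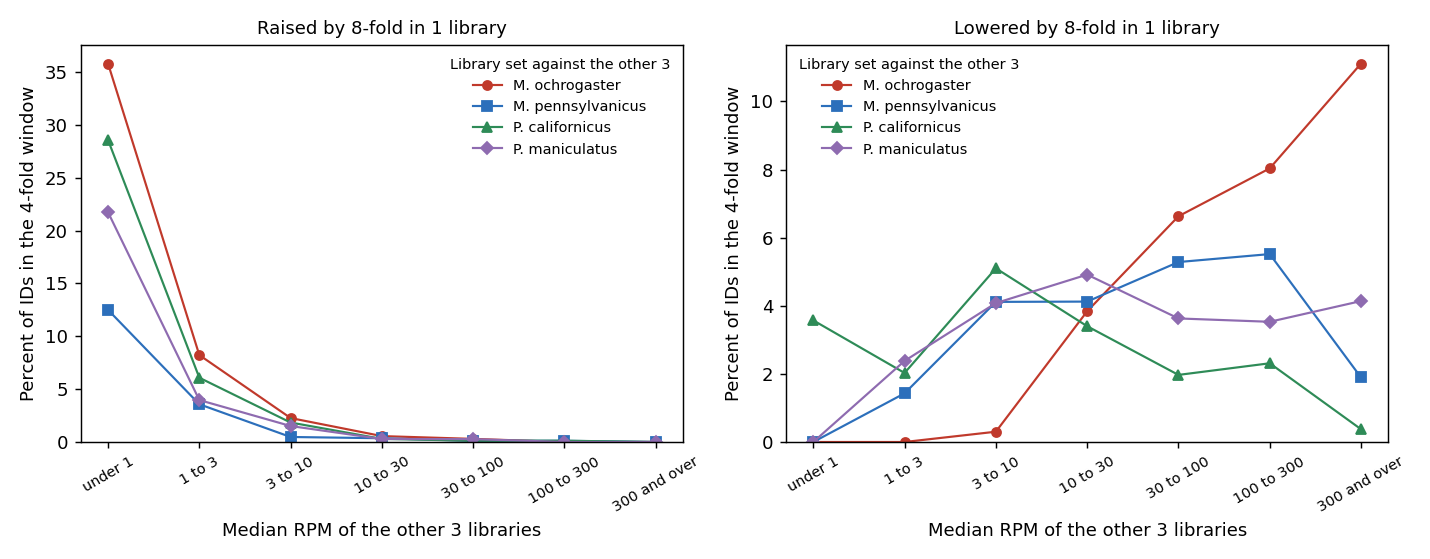
Percent of IDs in the 4-fold window (vertical) that were raised (left) or lowered (right) by 8-fold in 1 library, by the median RPM of the other 3 (horizontal). Each line is 1 library set against the rest. The lowered share reached 11.1% in M. ochrogaster from 300 RPM, and the raised share was highest under 1 RPM in all 4 libraries.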

How the data were processed

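Fore- and midbrain RNA of 4 rodent species was used, 1 library each from 3 pooled males. The submitters' processing notes name Trimmomatic, BWA and SAMtools. Not given in the sources used here are their versions and settings, the reference and its build, and how reads were assigned to protein IDs, those with several matches included. Per the file headers, each table holds raw read counts and RPM. The deposited RPM equal the count divided by 1 constant per library, which exceeds the listed counts (93.8% to 95.6% are listed).

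The rule was applied to the deposited RPM of the 9375 IDs listed in all 4 tables, with no pseudocount and no filter, in Python 3.11.15 (pandas 2.3.3). Intervals are exact binomial (scipy 1.17.1) and cover counting error only. The script was tested on simulated data. No test was made, since the contrast chose the members and each species has 1 library. Named IDs are, per direction, the 10 most abundant and the 3 with the largest ratios, plus the 2 on each side of the 8-fold limit. Planned gene lists needed symbols and were not applied. Alternatives covered the limits, count minimums, 0.5 RPM added, thinning, each comparison library left out and other scales (TMM from edgeR 4.0.16, size factors from DESeq2 1.42.0, R 4.3.3). The members and lists were chosen with earlier results of these data known.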

Additional observations from a re-analysis of the deposited data

How the results depend on the processing

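The counts of 77 raised and 301 lowered IDs stayed within 1.5 times under every other scale, added 0.5 RPM and thinning tried. They lay between 77 and 85 raised and between 271 and 328 lowered. The count minimums, 10 in each library or 100 on the high side, could remove no member, as every member already passed them. After adding 0.5 RPM, 64 of the 77 raised IDs remained among 83. Recentring M. ochrogaster, chosen after seeing the data, gave 82 and 293. A fold limit of 4 gave 190 raised and 506 lowered IDs, and a limit of 16 gave 26 and 154. A spread below 2-fold gave 38 raised IDs. Without M. pennsylvanicus, P. californicus or P. maniculatus, 225, 222 and 211 were raised. With TMM, P. californicus was highest in 26.0% and lowest in 31.0% of lowered IDs, and P. maniculatus 33.1% for both. Relative to the reads behind the RPM scale, raised IDs held 1.21%, 0.0539%, 0.0692% and 0.0501% in M. ochrogaster, M. pennsylvanicus, P. californicus and P. maniculatus, and lowered IDs 0.185%, 9.55%, 6.99% and 5.89%. Unlisted IDs numbered 120 from 1 RPM and 22 from 100 RPM. These follow from the wider or narrower limits, fewer libraries or larger denominators, except for the TMM values, whose cause was not tested. For the 23 IDs named by abundance or ratio, 115 of 115 ratios under other scales, added RPM or thinning stayed at 8 or more, though 2 moved by over 1.5 times with 0.5 RPM added (ENSRNOP00000005654 to 76.0 and ENSRNOP00000014312 to 2002). For the 4 members named as nearest inside the limit, 10 of 20 such ratios were below 8, and for the 4 IDs nearest outside it 9 of 20 were at 8 or more. No paired analysis was possible because each species has 1 library and the result comes from no test.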
